A study of Mus musculus with 2 samples.

Results

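The receptors by which lung phagocytes take up dead cells were followed here through 6 genes, Timd4, Havcr2, Axl, Mertk, Clec9a and Cd36, chosen by symbol out of 32285 measured genes, and each symbol matched 1 row. Live CD45.2+ YFP+ cells had been sorted from lungs of zbtb46-cre x rosa26-yfp mice and profiled by droplet single-cell RNA sequencing. The adult group was 8 weeks old and the neonatal group 7 days old, with 2 pools per age and at least 5 mice in each pool, so n = 2 per age throughout. Both ages carried the same Cre and reporter alleles, and no treatment was named for either. Zbtb46, whose product is typical of classical dendritic cells (DC), drives the Cre, and because YFP stays on after recombination it also marks cells that expressed Zbtb46 only in the past. The sort held many other cells, since DC made up 27.7% and 24.1% of kept cells in adult pools 1 and 2 and 39.7% and 34.6% in neonatal pools 1 and 2.

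A dying cell moves phosphatidylserine to its outer surface, and phagocytes read this lipid either directly or through bridging proteins. TIM-4, the product of Timd4, and TIM-3, the product of Havcr2, bind the lipid themselves, and TIM-4 mainly tethers the corpse. AXL and MERTK are receptor tyrosine kinases of the TAM family that bind it through plasma proteins, AXL through Gas6 and MERTK through Gas6 or protein S. CLEC9A, also called DNGR-1, binds actin filaments exposed by ruptured cells and steers the cargo of type 1 classical DC (cDC1) towards cross-presentation, the display of engulfed antigen to CD8 T cells. CD36 is a scavenger receptor for oxidised lipids and apoptotic cells.

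Gene UMIs, which are counts of distinct captured molecules, came to 8993471 and 8172362 in adult pools 1 and 2 and to 20346024 and 19549992 in neonatal pools 1 and 2. Of 14710 barcodes, 12739 were kept as cells, and their median depth lay between 3052 and 3714.5 UMIs in the 4 pools. Clusters were named from fixed marker genes that exclude the 6 receptors, so a class name such as cDC1 means cDC1-like. The classes compared held 306 and 231 cDC1 in adult pools 1 and 2 and 759 and 700 in neonatal pools 1 and 2. Age was bound to other differences that cannot be told apart from it. Cells of an age were combined for loading, and the level of Xist, which is made from the inactive X of female cells, was 0.235 and 0.129 CPM in adult pools 1 and 2 but 709 and 603 CPM in neonatal pools 1 and 2 (CPM, the counts-per-million scale, here of UMIs). Ddx3y, a gene of the Y chromosome, was at 69.7 and 76.6 CPM in adult pools 1 and 2. In neonatal pools 1 and 2 it was at 0.525 and 11.8 CPM, so the neonatal pools also differed from each other in Y-linked RNA.

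The 6 genes were spread over the myeloid classes in clearly different ways. Levels below are CPM of the gene within all UMIs of the class in a pool. Timd4 was a gene of cDC1 and mature DC in adult lungs. It averaged 94.2 ± 9.63 CPM in adult cDC1 and 80.8 ± 2.53 CPM in adult mature DC, and the pools of these classes did not overlap with each other or with adult cDC2, at 12.4 ± 2.12 CPM (± is the SD of 2 pools). In neonatal lungs its highest class was instead the C1q macrophage, at 28.0 and 24.6 CPM from 8 UMIs in each neonatal pool that lay in 4 of 54 and 2 of 52 cells, while mature DC, cDC1 and cDC2 overlapped with each other at means between 8.18 and 8.93 CPM. Monocytes of either kind held at most 1 Timd4 UMI in any pool, so the gene was at the limit of detection there.

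Havcr2 was broader. cDC1 led at both ages among classes with 20 or more cells in a pool, followed in adult lungs by nonclassical monocytes at 128 ± 5.83 CPM and cDC2 at 89.7 ± 6.81 CPM, with no overlap between these 3 classes. In neonatal lungs nonclassical monocytes came to 91.8 ± 1.51 CPM, and cDC2 and classical monocytes overlapped at 43.6 ± 4.12 and 43.2 ± 0.675 CPM. Mature DC held little at either age, between 4.08 and 13.03 CPM in the 4 pools.

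By level within a class, Axl was highest in macrophages in this sort. C1q macrophages held 248 and 204 CPM in adult pools 1 and 2 and 301 and 227 CPM in neonatal pools 1 and 2, from 24 to 54 cells per pool. Alveolar macrophages, found as a class only in neonatal pools with 54 and 41 cells, held 419 and 326 CPM. Among DC, cDC2 kept Axl at both ages and cDC1 had it mainly in adults. By share of UMIs the order differed in adults, where cDC1 held 54.0% of 559 Axl UMIs and C1q macrophages 12.3%. In neonatal cells alveolar macrophages held 22.3% of 1103 Axl UMIs, C1q macrophages 14.5%, cDC2 21.1% and cDC1 10.2%.

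Mertk stood apart, because no UMI of it was found in cDC1 or cDC2 of any pool. At the depth of cDC1 a count of 0 allows up to 1.28 and 1.71 CPM in adult pools 1 and 2 and 0.597 and 0.627 CPM in neonatal pools 1 and 2, taking 3 counts as the limit. In neonatal lungs most of its UMIs sat in macrophages. Neonatal alveolar macrophages held 173 and 170 CPM and made up 61.9% of the 181 Mertk UMIs of neonatal cells. C1q macrophages held 16.03 and 0 CPM, from 2 and 0 UMIs, in adult pools 1 and 2 and 35.0 and 24.6 CPM, from 10 and 8 UMIs, in neonatal pools 1 and 2. By class sums, UMIs of both TAM receptors were thus found in macrophages, though adult C1q macrophages held only 2 and 0 of Mertk. These sums do not show whether the same cells held both. DC carried UMIs of Axl without Mertk, apart from 9 Mertk UMIs in mature DC of all pools.

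Clec9a was nearly private to cDC1. Of all Clec9a UMIs in kept cells, 90.9% of 880 in adult pools and 81.4% of 3135 in neonatal pools lay in cDC1, and a further 11.6% of the neonatal UMIs lay in proliferating cDC1. Neutrophils, which should lack the gene, still held 6.06 and 3.45 CPM in adult pools 1 and 2 and 6.54 and 9.67 CPM in neonatal pools 1 and 2. Monocytes of both kinds lay between 0.781 and 5.75 CPM over the 4 pools. Values of cDC2 lay between 5.07 and 17.3 CPM, with adult pool 1 (10.9) and neonatal pool 2 (17.3) above every neutrophil pool. Neutrophils were shallower than these cells, so their CPM is only a rough guide to background, and these low values are not read further.

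Cd36 was highest, among the classes with 20 or more cells in every pool, in nonclassical monocytes and cDC1. Nonclassical monocytes held 370 and 399 CPM in adult pools 1 and 2 and 413 and 349 CPM in neonatal pools 1 and 2, so the ages overlapped. In cDC2 it was low, between 8.96 and 17.3 CPM, beside 1.15 to 10.5 CPM in neutrophils. The 25 and 37 endothelial cells of neonatal pools 1 and 2 held 480 and 409 CPM, and adult pools had too few of them, 4 and 4, for a level. Macrophages held Cd36 too. The 54 and 41 alveolar macrophages of neonatal pools 1 and 2 held 226 and 329 CPM, above neonatal cDC1 at 187 and 210 CPM. C1q macrophages lay between 123 and 208 CPM over the 4 pools.

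**Figure D1:**
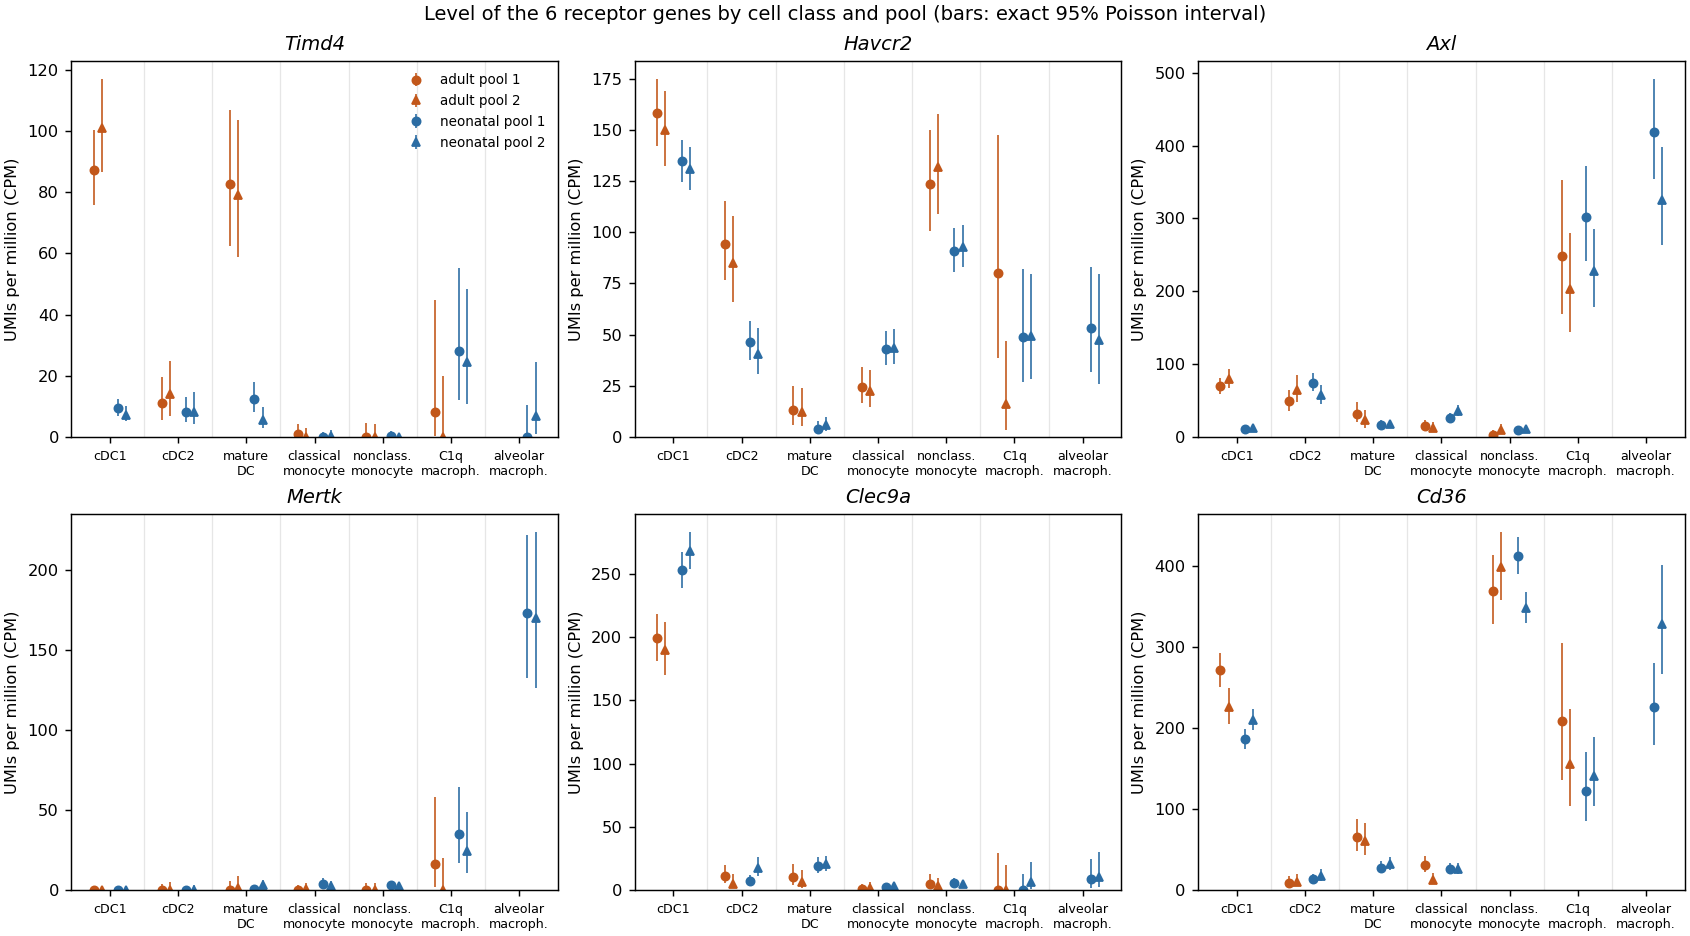
Each panel plots 1 gene in CPM (vertical axis, linear, from 0) for 7 cell classes, with orange symbols for adult and blue symbols for neonatal pools and bars for the exact 95% Poisson interval of counting error; classes under 20 cells in a pool are left out. Timd4 and Axl separate by age in cDC1, Mertk is near 0 outside macrophages and Clec9a outside cDC1.

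The age comparison asked how lung DC and their neighbours differ between adult and neonatal mice. In cDC1 all 5 receptor genes that passed the filter on low counts were called, at an edgeR quasi-likelihood adjusted p under 0.05, against 26.2% of the 9796 genes tested in this class, 14.5% higher and 11.7% lower in adults. Of the 5, 4 were higher in adult cDC1, namely Timd4, Axl, Cd36 and Havcr2, and Clec9a was lower. Mertk, at 0 UMIs, was not tested. The adult and neonatal pools did not overlap for these 5 genes, as was so for 61.7% of all genes tested. Their median log2 change was 0.38, beside 0.00 over all genes.

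Timd4 differed most. It came to 87.4 and 101 CPM in adult cDC1, from 205 and 177 UMIs, against 9.36 and 7.31 CPM in neonatal cDC1, from 47 and 35 UMIs. Both adult pools lay far above both neonatal pools, and the log2 change was 3.52 ± 0.15 (SE; edgeR adjusted p = 1.3e-23), an 11.5-fold higher level in adults. In cells thinned to 2000 UMIs, which removes differences in depth, 17.4% and 15.98% of adult cDC1 held a Timd4 UMI against 1.99% and 1.59% of neonatal cDC1. Without thinning, at median depths of 7809 and 7911 UMIs in adult cDC1 and 6651 and 6860 UMIs in neonatal cDC1, the shares were 37.9% and 41.1% in adult and 3.82% and 3.86% in neonatal cDC1. Neutrophils, which should lack the gene, showed it in 0.172% and 0.202% of adult and 0 of 398 and 0 of 568 neonatal cells at median depths between 1511 and 1708 UMIs. With 2 pools against 2, a two-sided exact permutation test of such shares cannot go below a p of 1 in 3, which is what it gave here.

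Axl followed the same pattern. It came to 69.5 and 79.3 CPM in adult cDC1 against 11.1 and 11.9 CPM in neonatal cDC1. The log2 change was 2.72 ± 0.15 (edgeR adjusted p = 1.0e-19), 6.59-fold higher in adults, and the thinned share of cells with an Axl UMI was 12.4% and 10.96% in adult against 1.73% and 2.02% in neonatal cDC1. Unthinned shares were 28.4% and 31.6% in adult against 5.14% and 6.29% in neonatal cDC1, while neutrophils, at the depths given above, showed Axl in at most 0.503% of the cells of a pool. In these measures the adult pools lay above the neonatal pools without overlap.

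The other 3 changes in cDC1 were small. Cd36 stood at 272 and 227 CPM in adult and 187 and 210 CPM in neonatal cDC1, a log2 change of 0.38 ± 0.08 (edgeR adjusted p = 1.6e-04) that was 0.23 without adult pool 1, and the gap between the nearest pools of the 2 ages was smaller than the gap between the 2 adult pools. Havcr2 stood at 158 and 150.1 CPM in adult and 135 and 131 CPM in neonatal cDC1, a log2 change of 0.26 ± 0.08 (edgeR adjusted p = 0.0098). This call was lost without adult pool 1 (log2 0.21) or neonatal pool 2 (log2 0.24), and with DESeq2. Clec9a went the other way, with 199 and 190.0 CPM in adult and 253 and 268 CPM in neonatal cDC1, and fell by 0.37 ± 0.07 on the log2 scale in adults (edgeR adjusted p = 1.7e-05). The Clec9a locus on chromosome 6 overlaps Clec1b and Gm43914 on the same strand in the annotation used, so its count depends on how shared reads were assigned.

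Promoter sequence is shown for the 2 genes that differed most in cDC1, Timd4 and Axl, as the 250 bases before the transcription start annotated by RefSeq on GRCm38.p6. That of Timd4 lies on the plus strand at chr11:46810549-46810798 and that of Axl on the minus strand at chr7:25788734-25788983. Each is written 5′ to 3′ in lower case, with motif matches in capitals.
Timd4: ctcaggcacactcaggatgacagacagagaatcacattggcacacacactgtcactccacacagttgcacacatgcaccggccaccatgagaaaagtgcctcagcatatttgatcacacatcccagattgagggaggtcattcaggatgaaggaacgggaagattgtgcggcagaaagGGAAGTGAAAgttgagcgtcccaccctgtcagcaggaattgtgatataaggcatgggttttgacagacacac
Axl: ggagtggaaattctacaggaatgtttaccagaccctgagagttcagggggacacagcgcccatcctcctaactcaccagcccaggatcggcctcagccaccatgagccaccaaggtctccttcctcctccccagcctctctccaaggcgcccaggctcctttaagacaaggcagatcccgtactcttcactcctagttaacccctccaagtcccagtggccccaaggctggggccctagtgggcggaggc
In all, 4 motifs were searched on both strands, chosen after the letters had been seen. The capitals in Timd4 mark the ETS-IRF composite (GGAA, any 2 bases, then GAAA), the kind of element that PU.1 binds with IRF4 or IRF8 in DC, with its first base 72 bases before the start and no overlap with another match. Of 32851 mouse promoters in the table, 2.30% held this motif in a window of the same length. Neither the interferon-stimulated response element (GAAA, any 2 bases, then GAAA; 2.98% of promoters) nor the NF-kB motif (GGGA, any base, then TTTCC; 0.356%) was found in the 6 genes, and the AP-1 motif TGANTCA (6.75%) was found in the promoter of Havcr2 only. These matches describe letters in a window and say nothing about binding. In GENCODE M21, Timd4 lies at chr11:46810800-46844332, 330 kb beyond the end of Havcr2 on the same strand, and Axl at chr7:25757273-25788705.

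**Figure D2:**
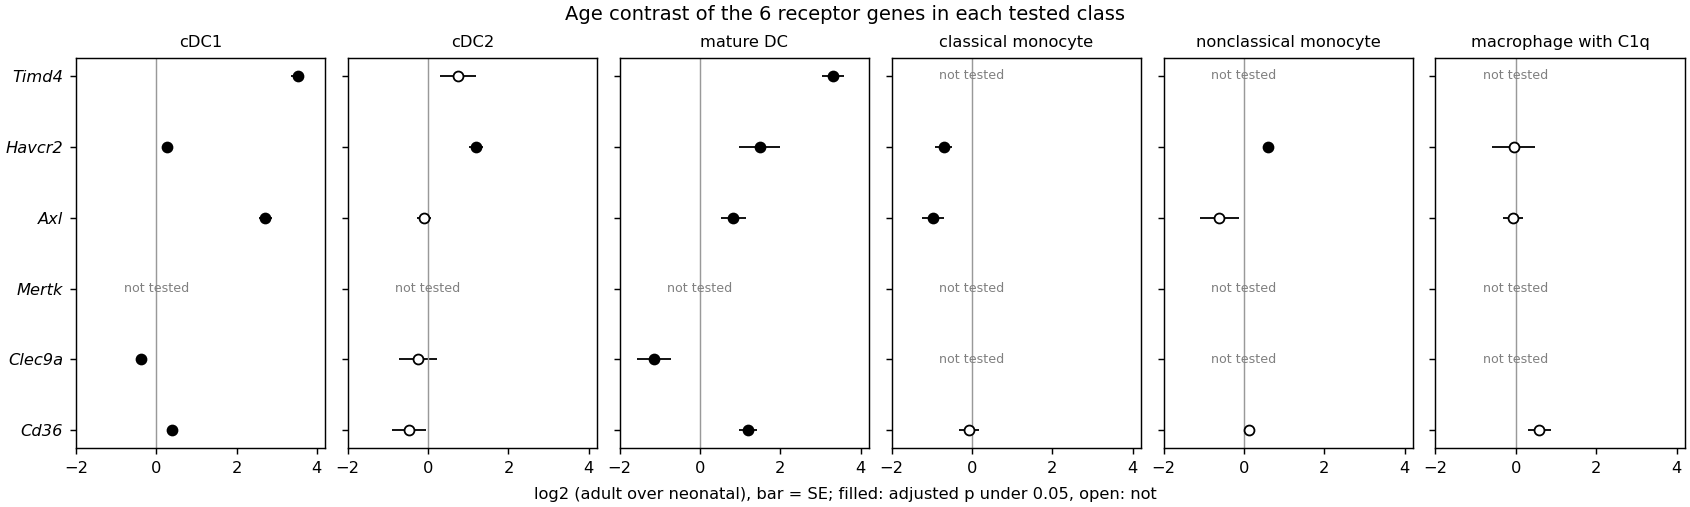
Log2 change of adult over neonatal pools (horizontal axis) with its standard error for each receptor gene (rows) in 6 cell classes (panels); filled circles passed an edgeR adjusted p under 0.05. Timd4 and Axl in cDC1, at 3.52 and 2.72, and Timd4 in mature DC, at 3.30, lie farthest from 0.

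The cDC1 of the 2 ages fell largely into different clusters, and the receptor genes differed between those clusters. The cluster led by Cldn1, Plet1 and Epcam held 78.8% of adult and 2.33% of neonatal cDC1. The cluster led by Xcr1, Gm43914 and Clec9a held 21.2% of adult and 97.7% of neonatal cDC1. Clusters were drawn without the 6 receptors among the variable genes, and the levels in them are given as a description. Gm43914 and Clec1b, which overlap Clec9a on the same strand, were not barred from the variable genes. Clec9a levels may therefore not be independent of how the clusters were drawn.

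Timd4 was higher in adult cells also within the Xcr1-led cluster. There it came to 48.6 and 43.3 CPM in 62 and 52 adult cells against 7.34 and 7.06 CPM in 741 and 684 neonatal cells, with a log2 change of 2.74 ± 0.34 (edgeR adjusted p = 1.6e-08). Axl did not pass in that cluster, with 14.8 and 14.4 CPM in adult against 7.95 and 11.8 CPM in neonatal cells and a log2 difference of 0.63 ± 0.49 (edgeR adjusted p = 0.56). The log2 differences of Havcr2, Clec9a and Cd36 there were -0.11 ± 0.15, 0.17 ± 0.11 and 0.15 ± 0.13, none of them past the threshold, so 1 of 5 genes was called.

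In the Cldn1-led cluster, a comparison added after the data had been seen, none of the 5 genes was called with edgeR and 1 had an unadjusted p under 0.05. It rests on 18 and 16 neonatal cells. Timd4 came to 97.2 and 115 CPM in adult cells against 95.3 and 17.7 CPM in neonatal cells, and Axl to 83.3 and 95.3 CPM in adult against 147 and 17.7 CPM in neonatal cells. The neonatal pools lay far apart for both genes, 1 near or above the adult pools and 1 below them. Their log2 differences were 0.94 ± 0.42 for Timd4 and 0.15 ± 0.44 for Axl, with adjusted p of 0.32 and 0.94.

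At a finer clustering resolution of 2, the cells called cDC1 above differed in Axl among themselves. A cluster led by Plet1, Ccl17 and Cldn1 held 57 and 62 of the adult cells, with 214 and 204 Axl CPM in adult pools 1 and 2, and 25 and 16 of the neonatal cells, with 125 and 19.2 CPM. It had 0 cDC1 markers among its 10 leading genes and was left unnamed at that resolution, as was a cluster led by the same 3 genes at resolution 0.5. Without it, cDC1 drawn at resolution 2 gave log2 changes of 3.83 for Timd4 and 2.13 for Axl, and at resolution 0.5 of 3.54 and 1.99, all called by edgeR. The same cluster was low in Clec9a in adults, at 78.3 and 69.3 CPM, against 285 and 211 CPM in neonatal cells. The cluster led by Gm43914, Gpr141b and Cadm1 had the reverse makeup, with 8.82 and 10.7 Axl CPM and 288 and 335 Clec9a CPM in 43 and 40 adult cells, and 6.92 and 8.26 Axl CPM and 297 and 325 Clec9a CPM in 290 and 258 neonatal cells. Timd4 in this second cluster was still 49.98 and 28.5 CPM in adult against 4.26 and 5.31 CPM in neonatal cells. This finer split was chosen after the data had been seen, and its differences were not tested.

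**Figure D3:**
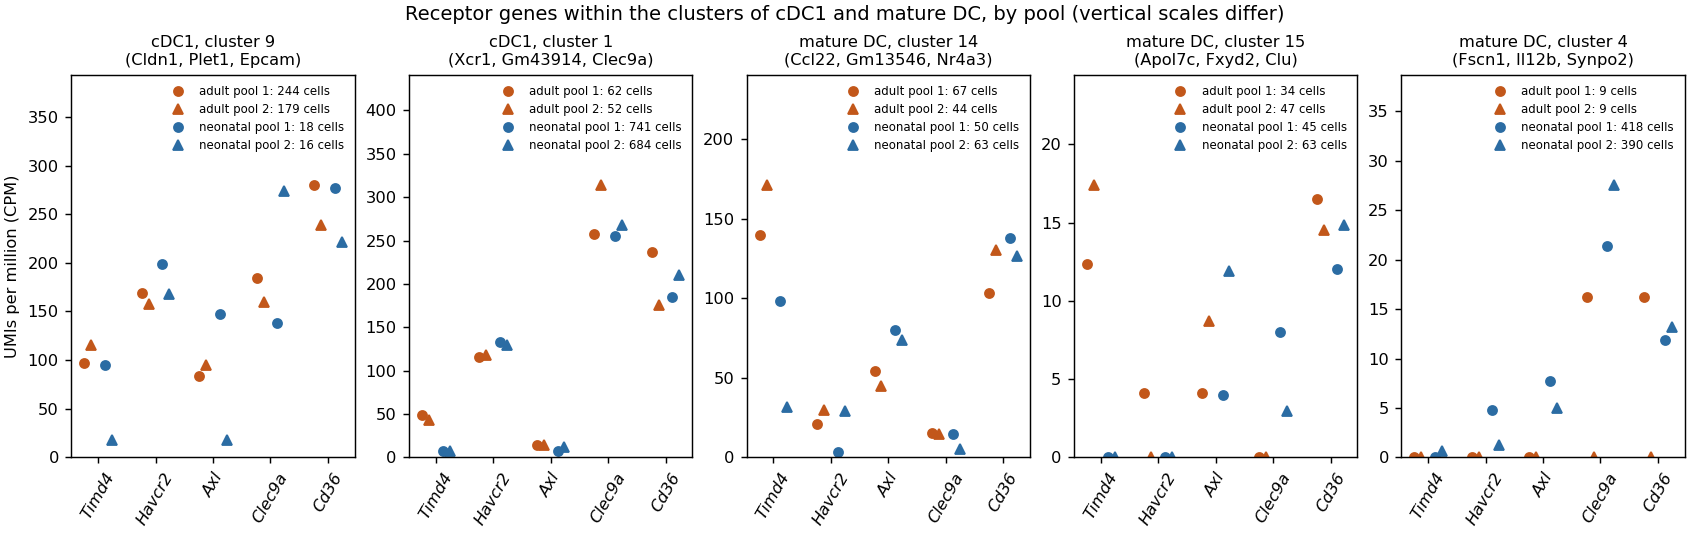
Levels in CPM (vertical axes, each from 0 with its own scale) of 5 receptor genes within 2 clusters of cDC1 and 3 clusters of mature DC, with orange symbols for adult and blue for neonatal pools and the number of cells per pool in each legend. In cDC1 the Timd4 values of adult cells lie above the neonatal ones in the Xcr1-led cluster, at 48.6 and 43.3 against 7.34 and 7.06, while Axl lies close together there.

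Individual cDC1 also differed in how many of the 6 genes they showed. Thinned to 2000 UMIs, 2.34% and 1.83% of adult cDC1 held UMIs of 4 or more of the genes, against 0.133% and 0.289% of neonatal cDC1. Cells with 3 of them were 10.4% and 8.68% of adult and 4.26% and 3.61% of neonatal cDC1. In adult pools 1 and 2, 11 and 7 thinned cells held both Timd4 and Axl, where the product of the 2 shares gives 6.43 and 3.84. Timd4 and Havcr2 shared 19 and 13 adult cells, where the product gives 14.96 and 9.11, and 9 and 6 neonatal cells, where it gives 3.63 and 2.67. Counts above the product were seen in all 4 pools for this TIM pair, and no test was made because cells of a pool are not replicates.

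Markers of other cell types moved with age in cDC1 too. The summed level of the 10 cDC2 markers was 318 and 380 CPM in adult against 141 and 121 CPM in neonatal cDC1, with 4 of the 7 tested called higher in adults and 0 lower. That of the 10 classical monocyte markers was 781 and 740 CPM in adult against 360 and 344 CPM in neonatal cDC1, with 2 of 6 called higher. The 10 C1q macrophage markers came to 32.8 and 30.2 CPM in adult against 73.3 and 60.8 CPM in neonatal cDC1, with 1 of 3 called higher and 1 lower. The 12 cDC1 markers themselves came to 4496 and 4209 CPM in adult against 6140 and 6182 CPM in neonatal cDC1, with 1 called higher and 9 lower. Mature DC markers, 12 in the list, came to 1057 and 1415 CPM in adult against 453 and 318 CPM in neonatal cDC1, with 2 of 8 called higher and 3 lower. The 11 nonclassical monocyte markers, of a class high in Cd36 and Havcr2, came to 357 and 345 CPM in adult against 217 and 222 CPM in neonatal cDC1, with 5 of 7 called higher and 0 lower. Markers of NK cells and plasmacytoid DC each had 3 of 4 called higher, with 0 and 1 lower and sums of 37.5 and 28.5 CPM and of 108 and 124 CPM in adult against 3.78 and 4.39 CPM and 60.1 and 49.1 CPM in neonatal cDC1. The 8 proliferation markers came to 86.1 and 100.4 CPM in adult against 180.4 and 202 CPM in neonatal cDC1, with 6 of 8 called lower. Over these 9 lists, Clec4a4 of cDC2, Klk1 of plasmacytoid DC and Eomes of NK cells were at 0 in all pools. Their part in the receptor differences was not tested.

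In mature DC, which carry Ccr7 and migrate to lymph nodes, Timd4 again differed most. All 5 genes tested were called, 4 of them higher in adults and Clec9a lower, against 28.3% of 7654 genes tested (14.7% higher and 13.5% lower), and 5 of 5 did not overlap between ages, against 64.3% of genes. Their median log2 change was 1.20, beside 0.00 over all genes. Timd4 came to 82.5 and 79.0 CPM in adult against 12.2 and 5.63 CPM in neonatal mature DC, a log2 change of 3.30 ± 0.27 (edgeR adjusted p = 6.3e-13) that was 3.93 without neonatal pool 1 and 2.81 without neonatal pool 2. Cd36 came to 65.2 and 60.7 CPM in adult against 27.6 and 32.0 CPM in neonatal mature DC, a log2 change of 1.20 ± 0.23 (edgeR adjusted p = 4.8e-05). Neither gene overlapped between ages. The summed level of the 12 cDC1 markers in mature DC was 786 and 633 CPM in adult against 1587 and 1350 CPM in neonatal pools, with 2 of 7 called higher and 2 lower, and its part in these differences was not tested.

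The other 3 calls in mature DC were less firm. Axl stood at 31.9 and 22.8 CPM in adult against 16.3 and 17.3 CPM in neonatal mature DC (log2 0.83 ± 0.31, edgeR adjusted p = 0.041). Havcr2 rested on 9 and 8 UMIs in adult and 9 and 13 UMIs in neonatal mature DC, at 13.03 and 12.1 CPM in adult against 4.08 and 5.63 CPM in neonatal cells (log2 1.48 ± 0.51, edgeR adjusted p = 0.024). Clec9a stood at 10.1 and 6.07 CPM in adult against 19.0 and 20.3 CPM in neonatal mature DC (log2 -1.14 ± 0.43, edgeR adjusted p = 0.0397), where the adult values lay close to those of neutrophils. With DESeq2 these 3 calls were lost, and 2 of the 5 genes were called. Leaving out a pool ended the call of Clec9a in each of 4 fits (log2 -1.55 to -0.83), that of Axl in all but the one without adult pool 2 (log2 0.57 to 1.04) and that of Havcr2 without either adult pool (log2 1.44 and 1.53).

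The clusters of mature DC again differed in makeup between ages. The cluster led by Fscn1, Il12b and Synpo2 held 8.57% of adult and 78.5% of neonatal mature DC, and almost no Timd4 was found in it, 0 UMIs in 18 adult cells and 1 UMI in 808 neonatal cells. The cluster led by Ccl22, Gm13546 and Nr4a3 held 52.9% of adult and 10.98% of neonatal mature DC. There Timd4 came to 140 and 172 CPM in adult against 98.2 and 31.7 CPM in neonatal cells, Axl to 54.4 and 44.8 CPM in adult against 80.0 and 73.9 CPM in neonatal cells, and Cd36 to 104 and 131 CPM in adult against 138 and 127 CPM in neonatal cells. Within this cluster Axl thus stood lower in the adult pools, opposite to its direction in the class as a whole, and Cd36 overlapped between ages. The third cluster, led by Apol7c, Fxyd2 and Clu, held 38.6% of adult and 10.5% of neonatal mature DC and was low in these receptors. Its Timd4 came to 12.4 and 17.4 CPM in adult cells, from 3 and 6 UMIs, against 0 UMIs in both neonatal pools, and no pool held more than 11.9 Axl CPM or 16.5 Cd36 CPM there. The values within clusters were not tested.

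In cDC2, 1 of 5 genes tested was called, against 18.7% of 7930 genes (11.1% higher and 7.55% lower), and 3 of 5 did not overlap between ages, against 59.2% of genes. Havcr2 came to 94.6 and 84.9 CPM in adult against 46.5 and 40.7 CPM in neonatal cDC2, a log2 change of 1.20 ± 0.18 (edgeR adjusted p = 4.3e-10), so both adult pools lay above both neonatal pools. Axl came to 48.8 and 64.6 CPM in adult against 74.5 and 57.3 CPM in neonatal cDC2 and overlapped, with a log2 difference of -0.10 ± 0.18 and a 95% interval between -0.46 and 0.26. Timd4 came to 10.9 and 13.9 CPM in adult against 8.07 and 8.29 CPM in neonatal cDC2, with a log2 difference of 0.75 ± 0.45 that did not pass (edgeR adjusted p = 0.27). Clec9a and Cd36 were low and did not pass.

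The Havcr2 call in cDC2 rested on part of the class. At resolution 2, the subset led by Gm34680, Bex6 and Ppp1r14a, whose leading genes include Siglech and Bcl11a of plasmacytoid DC as well as Clec10a of cDC2, held 165 and 235 Havcr2 CPM in 44 and 29 adult cells against 40.9 and 21.9 CPM in 21 and 19 neonatal cells. In the remaining cDC2, led by Cd209a, Havcr2 came to 65.1 and 29.95 CPM in 94 and 72 adult cells against 45.5 and 42.6 CPM in 301 and 183 neonatal cells, and the ages overlapped. With cDC2 redrawn at resolution 2, where this subset was left unnamed, the log2 difference of Havcr2 was 0.33 and no longer called (edgeR adjusted p = 0.41). The 8 plasmacytoid DC markers summed to 393 and 98.9 CPM in adult against 75.0 and 91.9 CPM in neonatal cDC2, with 1 of 1 tested called higher and none at 0 in all pools. The 11 nonclassical monocyte markers came to 953 and 1031 CPM in adult against 901 and 869.7 CPM in neonatal cDC2, with 6 of 7 called higher and 1 lower, and the 12 mature DC markers to 736 and 1413 CPM in adult against 1793 and 2015 CPM in neonatal cDC2, with 6 of 10 called higher and 1 lower. The 12 cDC1 markers came to 517 and 493 CPM in adult against 899 and 1014 CPM in neonatal cDC2, with 3 of 7 called lower. The part of these lists in the result was not tested.

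The age contrast itself differed between DC classes for several receptors. Over all genes of the joint test, 8.78% of 9545 were called between cDC1 and cDC2, and of the receptors Timd4, Axl and Havcr2 were called, 3 of 5. The change of Timd4 was larger in cDC1 than in cDC2 by 2.75 ± 0.43 on the log2 scale (edgeR adjusted p = 8.2e-08), and that of Axl by 2.80 ± 0.25 (edgeR adjusted p = 3.4e-21). The change of Havcr2 was smaller in cDC1 by 0.94 ± 0.18 (cDC1 minus cDC2 -0.94, edgeR adjusted p = 1.6e-05). Between cDC1 and mature DC, where 16% of 9853 genes were called, Axl and Cd36 were called, 2 of 5. Axl changed more in cDC1, by 1.95 ± 0.34 (edgeR adjusted p = 1.7e-05), and Cd36 more in mature DC (cDC1 minus mature DC -0.77 ± 0.23, edgeR adjusted p = 0.012), a call lost without adult pool 2 (-0.66) or either neonatal pool (-0.73 and -0.74). The Timd4 changes of cDC1 and mature DC differed by 0.29 ± 0.34, which did not pass (edgeR adjusted p = 0.67).

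Timd4, Mertk and Clec9a did not pass the filter on low counts in either monocyte class, so 3 receptors were tested. Of these, Axl and Havcr2 were called in classical and Havcr2 alone in nonclassical monocytes. In classical monocytes Mertk held 0 and 1 UMIs in adult pools 1 and 2 against 10 and 6 in neonatal pools 1 and 2. In nonclassical monocytes it held 0 and 0 against 9 and 8 UMIs. The adult pools of both classes had fewer cells. Classical monocytes had 2 of 3 tested genes called, against 18.2% of 8550 genes (10.9% higher and 7.32% lower), and both were lower in adults and did not overlap between ages, as was so for 61.5% of genes. Axl came to 14.8 and 12.4 CPM in adult against 25.5 and 35.9 CPM in neonatal classical monocytes (log2 -0.97 ± 0.27, edgeR adjusted p = 0.0045). Havcr2 came to 24.2 and 22.3 CPM in adult against 42.7 and 43.7 CPM in neonatal classical monocytes (log2 -0.70 ± 0.21, edgeR adjusted p = 0.011). Both calls were lost with DESeq2 and without adult pool 2 (log2 -0.85 for Axl and -0.64 for Havcr2) or neonatal pool 2 (log2 -0.71 and -0.68). Havcr2 also lost its call in each other clustering, at log2 -0.46 with resolution 0.5, -0.26 with resolution 2 and -0.07 with the receptors among the variable genes, and Axl did with resolution 2 (log2 -0.77). The 13 neutrophil markers summed to 277 and 285 CPM in adult against 1057 and 1235 CPM in neonatal classical monocytes, with 5 of 8 called lower in adults and none at 0 in all pools, and their part in the result was not tested. The cluster led by F13a1, Chil3 and Vcan held 90.8% of the adult cells of this class and 1.68% of the neonatal ones, and the cluster led by F13a1, Ly6c2 and Fn1 held 9.22% of adult and 98.3% of neonatal cells.

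In nonclassical monocytes Havcr2 went the opposite way. It came to 124 and 132 CPM in adult against 90.7 and 92.9 CPM in neonatal nonclassical monocytes, a log2 change of 0.60 ± 0.13 (edgeR adjusted p = 2.9e-05), the 1 call among 3 genes tested, against 19.8% of 8720 genes (9.83% higher and 9.93% lower), and 2 of 3 did not overlap between ages, against 58.6% of genes. No pool or alternative setting ended this call. The 2 age contrasts of Havcr2 differed by 1.29 ± 0.24 (classical minus nonclassical -1.29, edgeR adjusted p = 5.7e-06), in a test that called 7.68% of 9093 genes. Here too the ages lay in different clusters, since the one led by Cd300e, Fabp4 and Ace held 96.7% of adult and 1.10% of neonatal cells. No alternative setting compared the ages within a single cluster of this class. The 10 C1q macrophage markers summed to 6095 and 7086 CPM in adult against 2521 and 2645 CPM in neonatal nonclassical monocytes, with 2 of 4 called higher and 1 lower. The 11 alveolar macrophage markers summed to 572 and 493 CPM in adult against 220.1 and 215 CPM in neonatal cells, with 1 of 3 called higher, 2 lower and Cidec at 0 in all pools. The part of both lists in the Havcr2 change was not tested. Cd36 did not pass (log2 0.14 ± 0.08, 95% interval between -0.02 and 0.29).

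C1q macrophages had 0 of 3 tested genes called with edgeR, against 9.11% of 3689 genes (5.77% higher and 3.33% lower), and also 0 at an unadjusted p under 0.05 and 0 with DESeq2. Of the 3, 1 (Cd36) did not overlap between ages, against 51.3% of genes. The 24 to 54 cells per pool set wide limits. The log2 difference of Axl was -0.07 ± 0.24, with a 95% interval between -0.55 and 0.40, that of Cd36 0.59 ± 0.29 and that of Havcr2 -0.05 ± 0.53. Timd4 had 1 UMI in the adult sum and 16 UMIs in the neonatal sum, a raw ratio of adult over neonatal of 0.123 with an exact 95% interval between 0.00292 and 0.789. Mertk had 2 UMIs in the adult and 18 in the neonatal sum, a ratio of 0.218 with an interval between 0.0245 and 0.911. These intervals cover counting error only, and the 8 and 8 neonatal Timd4 UMIs lay in 4 and 2 cells. In edgeR without the low-count filter, 0 of 6 receptors were called in this class, and 2 had an unadjusted p under 0.05. The 10 cDC2 markers summed to 2621 and 2220.0 CPM in adult against 813 and 1198 CPM in neonatal C1q macrophages, with 5 of 7 called higher and Cd7 at 0 in all pools, and their part in these values was not tested.

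The wider machinery of dead-cell uptake was read from a list of 66 other genes. Of these, C1qa, C1qb, C1qc, Mrc1 and Marco were also on the marker lists that named the cell classes. In cDC1, 44 of the 66 were tested and 15 were higher and 10 lower in adults, which is 56.8% against 26.2% of all genes, with a median log2 change of 0.10. As described above, cDC1 of the 2 ages lay largely in different clusters, as did mature DC and both kinds of monocytes. The list is given by class only, and the part of cluster makeup in its changes was not tested. Havcr1, which encodes the phosphatidylserine receptor TIM-1, was rare but rose along with Timd4. It came to 7.67 and 8.56 CPM in adult against 0.398 and 0 CPM in neonatal cDC1, a raw ratio of 39.5 with an exact 95% counting interval between 10.1 and 340 because neonatal cells held 2 UMIs. Lrp1, a receptor of lipoproteins and calreticulin that takes part in corpse uptake, came to 52.0 ± 9.61 CPM in adult and 24.2 ± 1.20 CPM in neonatal cDC1 (log2 1.12 ± 0.15). Rac2, a GTPase of the actin cup, came to 116 ± 1.64 CPM in adult and 74.7 ± 6.11 CPM in neonatal cDC1 (log2 0.67 ± 0.09), and Cd68, a lysosomal scavenger protein, to 196 ± 14.04 CPM in adult and 141 ± 8.32 CPM in neonatal cDC1 (log2 0.52 ± 0.08).

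Genes of the steps after uptake in cDC1 split in direction. Of 9 genes of the phagosome and cross-presentation, 3 were higher and 3 lower in adults. Rab43, a GTPase needed for cross-presentation by cDC1, came to 236 ± 18.0 CPM in adult and 415 ± 6.02 CPM in neonatal cDC1 (log2 -0.77 ± 0.06), and Rab7b to 200.1 ± 6.81 CPM in adult and 313 ± 5.88 CPM in neonatal cDC1 (log2 -0.61 ± 0.06). Complement and lipoprotein uptake had 3 of 3 tested genes higher and the integrin bridge 2 of 4 higher and 1 lower. All p-values of the list genes named here and in the next paragraph were adjusted over all genes of the class in edgeR and passed 0.05.

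**Figure D4:**
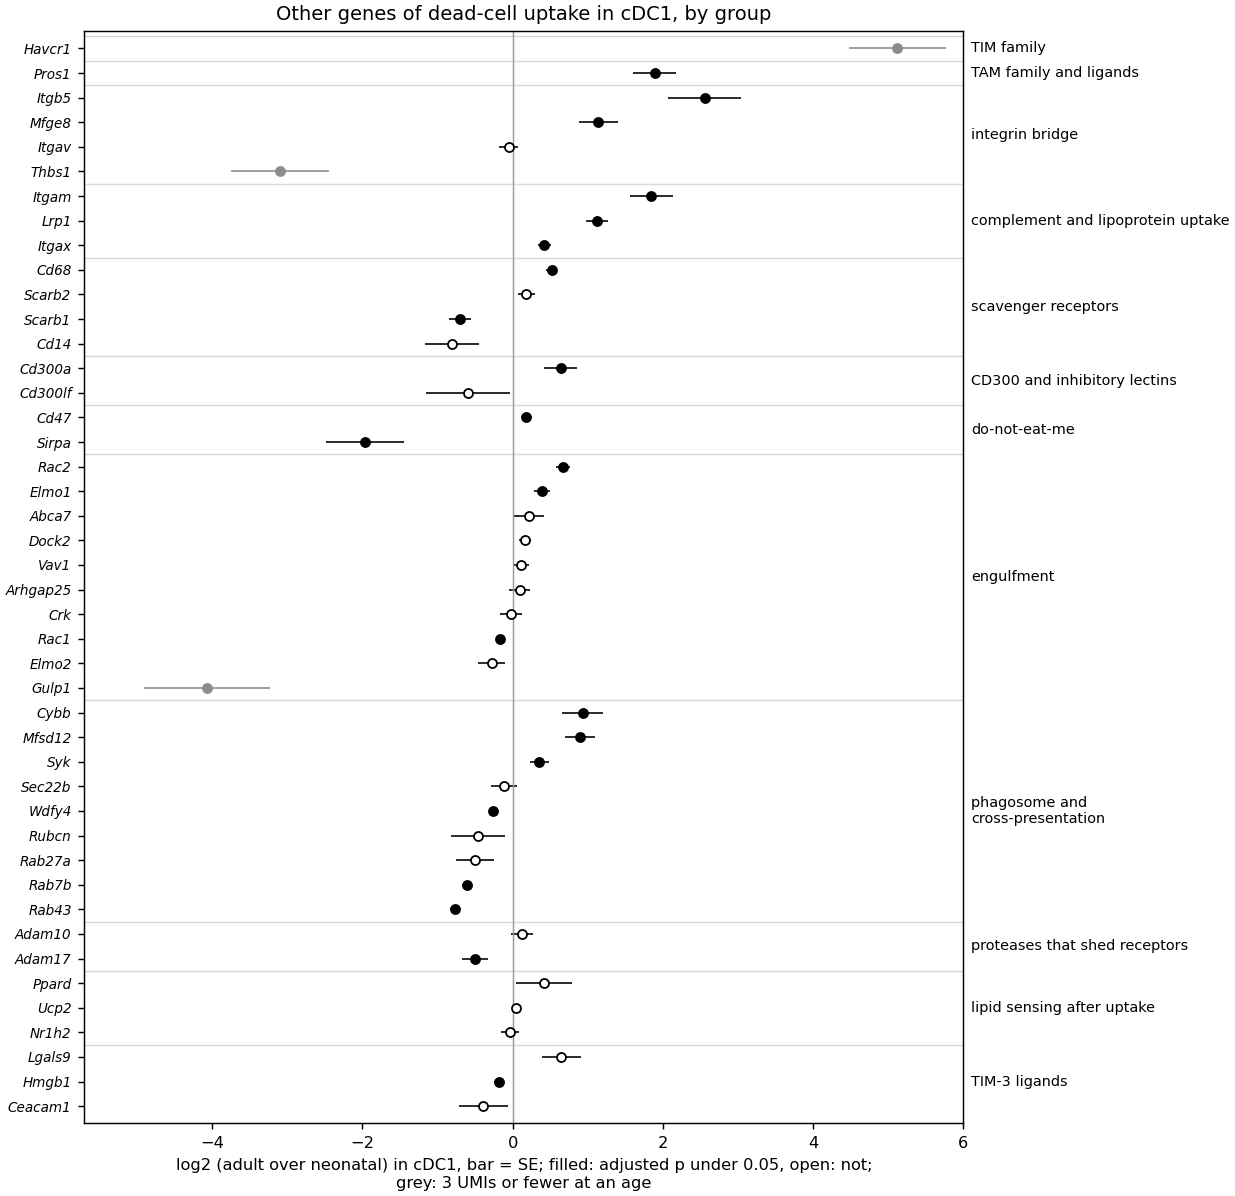
Log2 change of adult over neonatal cDC1 (horizontal axis) with its standard error for the 44 tested genes of the uptake list (rows), grouped by role; filled circles passed an edgeR adjusted p under 0.05, and grey marks genes with 3 UMIs or fewer at an age. The 15 filled circles to the right and 10 to the left of 0 are spread over 11 of the 12 groups.

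Among other DC, Mrc1 in cDC2 and Havcr1 in mature DC were higher in adults. In cDC2, 8 of 46 tested genes were higher and 7 lower in adults, 32.6% against 18.7% of all genes. Mrc1, the mannose receptor, came to 224 ± 23.2 CPM in adult and 13.5 ± 2.27 CPM in neonatal cDC2 (log2 4.25 ± 0.17), and Cybb, the catalytic subunit of the phagocyte oxidase, to 431 ± 33.9 CPM in adult and 226 ± 1.28 CPM in neonatal cDC2 (log2 1.11 ± 0.09). Cd14, a receptor for bacterial lipids, rose as well (log2 1.68 ± 0.26), while C1qb, Hmgb1 and Wdfy4 were lower (log2 -2.23 ± 0.34, -0.53 ± 0.08 and -0.54 ± 0.10). Mrc1 and C1qb are also markers of C1q macrophages. The 10 markers of that list summed to 317 and 420 CPM in adult against 205 and 260 CPM in neonatal cDC2. Of 5 tested, 1 was called higher and 1 lower. The part of macrophage-like cells in these values was not tested. In mature DC, 8 of 35 were higher and 7 lower, 42.9% against 28.3%. Havcr1 came to 17.0 ± 0.477 CPM in adult and 2.01 ± 1.00 CPM in neonatal mature DC (log2 3.17 ± 0.56), Cd68 rose (log2 1.55 ± 0.25) and Elmo1, an activator of Rac in engulfment, fell (log2 -1.04 ± 0.22). Ucp2 and Cd47 were higher (log2 0.51 ± 0.12 and 0.40 ± 0.10). Thbs1, whose thrombospondin bridges apoptotic cells to CD36, had 0 UMIs in adult and 65 UMIs in neonatal mature DC. That is at least 6.47-fold lower in adults with 3 counts over the age as the limit. The neonatal level was low, at 9.06 and 19.5 CPM, beside 813 and 759 CPM in neonatal and 192 and 182 CPM in adult classical monocytes. Whether background RNA from monocytes enters the mature DC counts was not tested.

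Cd300lf was lower in adult than in neonatal monocytes of both kinds, and Thbs1 in classical monocytes. In classical monocytes, 6 of 49 were higher and 13 lower, 38.8% against 18.2% of all genes, and in nonclassical monocytes 9 of 53 were higher and 16 lower, 47.2% against 19.8%. Thbs1 came to 187 ± 7.26 CPM in adult and 786 ± 38.0 CPM in neonatal classical monocytes (log2 -1.88 ± 0.07), and Cd300lf, a phosphatidylserine-binding inhibitory receptor, to 25.7 ± 0.104 CPM in adult and 85.0 ± 0.671 CPM in neonatal classical monocytes (log2 -1.53 ± 0.18). Cd68 was higher there (log2 0.54 ± 0.08). Thbs1 in nonclassical monocytes came to 1.21 and 4.47 CPM in adult against 299.7 and 193 CPM in neonatal cells and did not pass (edgeR adjusted p = 0.094). In nonclassical monocytes C3, Cd300lf and Cd14 were lower (log2 -2.05 ± 0.13, -2.32 ± 0.20 and -2.15 ± 0.18). In C1q macrophages, 3 of 40 were higher and 6 lower, 22.5% against 9.11% of all genes, with Cd14 and Mrc1 higher (log2 1.32 ± 0.24 and 0.89 ± 0.23) and Sirpa, the receptor for CD47, lower (log2 -1.10 ± 0.24). Mrc1 is also one of the markers that named this class, so its level there is not independent of the naming.

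Genes with the profile most like each receptor were read from 36 points, the 4 pools of 9 classes, by Pearson correlation of log2(CPM + 10) among 7716 genes; the points share libraries and depth, so no p is given. Closest to Clec9a were Gpr141b, Dbn1 and Naalad2, at r of 0.95, 0.95 and 0.94. Closest to Timd4 were Barx2, Rnf180 and Pkib, at 0.87, 0.81 and 0.81. Havcr2 was most like Ryr1, Cd180 and BC028528 (0.88, 0.88 and 0.86), Axl most like Myof, Trim47 and Dst (0.89, 0.88 and 0.87), Mertk most like Igf1, Ccl24 and F7 (0.87, 0.87 and 0.86) and Cd36 most like Smagp, Prkab2 and Lacc1 (0.80, 0.80 and 0.79). The likeness of Mertk rests on few UMIs. Its highest class mean was 18.9 CPM, below the 20 CPM asked of the compared genes. Alveolar macrophages, where most neonatal Mertk UMIs lay, were not among the 9 classes.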

How the data were processed

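The authors deposited 1 joint matrix of UMI counts over 14710 barcodes, not normalized according to the file header and the values. Cell Ranger 6.1.2, Seurat 4.2.0 and mm10 are named in the submitters' processing notes. The barcode suffix gives the pool, per the labels, and pools of an age were joined before loading, with 0 barcodes shared within an age and 14 between ages. Columns not used came to 0.

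A barcode was kept from 500 genes and 1000 UMIs upwards if mitochondrial UMIs were 10% or less. Scrublet doublets (20 and 14 in adult, 105 and 85 in neonatal pools) and cells carrying more than 20% of their hashtag UMIs from the wrong hashtag were dropped. Leiden clustering at resolution 1 used 30 principal components, 15 neighbours and 2996 variable genes without the 6 receptors. A cluster was named from fixed markers, needing 3 of them detected and, outside proliferating clusters, at least 1 of its own among its top 10 genes and no more of another class.

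Pools are the replicates, so counts of each class were added up within a pool, for the 9 classes with at least 20 cells in every pool. edgeR 4.0.16 under R 4.3.3 (filterByExpr, TMM, robust quasi-likelihood test) gave Benjamini-Hochberg adjusted p over all genes of a class, with 0.05 as threshold. The standard error is the log2 change over the square root of F, and the 95% intervals of log2 changes are normal approximations from it. The difference between classes was an interaction with pool as a block. Alternatives were DESeq2 1.42.0, its size factors, library size only, other filters, a replicate block, each pool left out, doublets kept, stricter cells, other clusterings, proliferating cells joined and single cDC1 clusters.

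The test was also run on counts simulated from the means, depths and spread of these same sums, with known changes. Over the classes reported, changes of 1.5-fold were recovered in 16% (C1q macrophages) to 52% (cDC1) of changed genes. Changes of 2-fold were recovered in 42% (C1q macrophages) to 68% (cDC1 and classical monocytes). Intervals and limits from counts cover counting error only. Named are the 6 receptors, the 3 genes most like each (without Gm and Rik, haemoglobin, sex-linked and marker genes), and of the uptake list up to 6 called genes by smallest p in each DC class and up to 3 elsewhere. The receptors, lists and tests were chosen with earlier results of these data known. Python 3.11.15 with scanpy 1.11.5 and leidenalg 0.10.2 was used. Gene positions are GENCODE M21 on GRCm38, counted from 1, which matched 32235 of 32285 identifiers, and promoter sequences are from RefSeq.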

Additional observations from a re-analysis of the deposited data

Results flagged for a closer look

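Each result here is a difference between 2 cell classes in the log2 change of adult over neonatal pools, tested as an interaction in edgeR and past an adjusted p of 0.05. Timd4 changed more in cDC1 than in cDC2, by 2.75 on the log2 scale, and Axl by 2.80. The change of Havcr2 in cDC1 minus that in cDC2 was -0.94. Leaving out each pool in turn, these 3 differences stayed between 2.58 and 2.98 for Timd4, between 2.55 and 3.01 for Axl and between -1.03 and -0.88 for Havcr2, and each remained called.

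Axl changed more in cDC1 than in mature DC, by 1.95, and between 1.68 and 2.30 with a pool left out. For Cd36 the change in cDC1 minus that in mature DC was -0.77, and it was called in 1 of the 4 fits that leave out a pool, the one without adult pool 1. For Havcr2 the change in classical minus that in nonclassical monocytes was -1.29, between -1.40 and -1.21 with a pool left out. In each of these classes except cDC2 the 2 ages lie largely in different clusters. The makeup of cDC2 mattered as well. At resolution 2, where the subset led by Gm34680, Bex6 and Ppp1r14a was left unnamed, the Havcr2 change in cDC2 was 0.33 and not called. Differences between classes were not computed for other clusterings, and the part of cluster makeup in them was not tested.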

How the results depend on the processing

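The Timd4 and Axl results in cDC1 kept direction and call under 17 and 16 of 18 alternatives, ranging over log2 0.94 to 3.83 for Timd4 and 0.15 to 2.82 for Axl. Timd4 and Cd36 in mature DC and Havcr2 in nonclassical monocytes kept theirs under 15 of 15. None of these alternatives compared the ages within a single cluster of mature DC or nonclassical monocytes. They therefore cannot show how far the differing cluster makeup of the ages enters these results. Of the comparisons of a main result with an alternative, 396 were unaltered in direction and call, 37 lost the call, 18 reversed and 34 counts moved by over 1.5 times. Of the others, 118 were unaltered, 10 lost the call, 3 gained one and 17 reversed. The causes of the changes below were not tested, except where fewer cells or pools were used by construction.

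How cDC1 was drawn mattered most. In the cluster holding most neonatal cDC1, log2 values were 0.63 for Axl, 0.15 for Cd36, 0.17 for Clec9a and -0.11 for Havcr2, and 1 of the receptors and 597 genes were called. In the cluster holding most adult cDC1, a choice made after seeing the data, they were 0.94 for Timd4, 0.15 for Axl, 0.12 for Cd36, -0.19 for Clec9a and -0.11 for Havcr2, and 0 receptors and 151 genes were called (edgeR, 1 receptor at an unadjusted p under 0.05). At resolution 0.5, Clec9a (-0.13) and Havcr2 (0.095) in cDC1 lost their calls, Axl (0.27) and Cd36 (0.66) in cDC2 and Cd36 in classical monocytes (0.35) reversed, Havcr2 in classical monocytes lost its call (-0.46), Cd36 in nonclassical monocytes gained one (0.24), Axl in cDC1 was at 1.99, and the receptors called numbered 3 in cDC1, 2 in cDC2, 1 in classical and 2 in nonclassical monocytes. At resolution 2, Axl in cDC1 was at 2.13, and calls were lost for Axl (0.74) and Havcr2 (1.32) in mature DC, Axl (-0.77) and Havcr2 (-0.26) in classical monocytes, Clec9a (-0.13) and Havcr2 (0.13) in cDC1 and Havcr2 in cDC2 (0.33), Axl in cDC2 (0.22) and C1q macrophages (0.85) and Cd36 in classical monocytes (0.50) reversed, 3 receptors were called in cDC1, 0 in cDC2 (0 at an unadjusted p under 0.05), 0 in classical monocytes (1 at an unadjusted p under 0.05) and 3 in mature DC, and 129 genes were called in C1q macrophages. With the receptors allowed among the variable genes, Axl (0.48), Cd36 (0.68) and Timd4 (-0.90) in cDC2 and Cd36 in classical monocytes (1.41) reversed, Axl in mature DC (0.57), Havcr2 in cDC2 (0.36) and Havcr2 in classical monocytes (-0.073) lost their calls, Axl (-1.30) and Cd36 (0.37) in nonclassical monocytes gained one, Havcr2 in mature DC was at 3.60, and 2 receptors were called in cDC2 and 3 in nonclassical monocytes.

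With DESeq2's Wald test fewer genes were called than with edgeR, 1190 against 2563 in cDC1, 472 against 1483 in cDC2, 937 against 2165 in mature DC, 578 against 1560 in classical monocytes, 684 against 1723 in nonclassical monocytes and 94 against 336 in C1q macrophages. Receptors called fell to 2 in mature DC and 0 in classical monocytes (2 at an unadjusted p under 0.05), with Axl (0.83), Clec9a (-1.15) and Havcr2 (1.501) in mature DC and Havcr2 in cDC1 (0.26) not called and Havcr2 in C1q macrophages (0.057) reversed. Axl in mature DC was also not called with library size only (0.70), without the low-count filter (0.75) or with stricter cells (0.82), nor was Havcr2 in mature DC with doublets kept (1.07). With at least 10 counts in both pools of an age, Axl (0.0018) and Havcr2 (0.0072) in C1q macrophages reversed. Library size only moved the median of all genes to -0.17 in cDC2, -0.12 in mature DC, -0.19 in classical monocytes, -0.11 in nonclassical monocytes and -0.17 in C1q macrophages. The percent of calls higher in adults then fell to 31.7 against 59.6 in cDC2, 37.8 against 52.1 in mature DC, 26.4 against 59.9 in classical monocytes, 31.3 against 49.7 in nonclassical monocytes and 38.1 against 63.4 in C1q macrophages, and no receptor changed direction.

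The replicate numbers were treated as names only. Deviations of same-numbered pools correlated at -0.143 to 0.051 over 9 classes, but with 2 pools per age this cannot show whether such pools were handled together. With the replicate block, Timd4 in cDC1 was at 3.52 and 80 genes were called in C1q macrophages against 336, and no receptor call changed.

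Leaving out each pool in turn gave log2 values between -0.29 and 0.14 for Axl and between -0.95 and 0.38 for Clec9a in cDC2, between 0.21 and 0.30 for Havcr2 in cDC1, between 2.81 and 3.93 for Timd4, between 0.57 and 1.04 for Axl, between -1.55 and -0.83 for Clec9a and between 1.44 and 1.53 for Havcr2 in mature DC, between -0.88 and 0.43 for Cd36 in classical monocytes, and between -0.30 and 0.10 for Axl and between -1.40 and 0.85 for Havcr2 in C1q macrophages. Havcr2 in classical monocytes lay between -0.77 and -0.64 and Axl there between -1.21 and -0.71. Differences between classes ranged from -0.87 to -0.66 for Cd36, cDC1 minus mature DC, from -0.16 to 0.63 for Timd4, cDC1 minus mature DC, from -0.73 to 0.55 for Clec9a, cDC1 minus cDC2, and, classical minus nonclassical monocytes, from -1.12 to 0.98 for Axl and from -1.06 to 0.33 for Cd36. Genes called came to 847 to 1168 in cDC2, 1244 to 1794 in mature DC and 106 to 307 in C1q macrophages, and receptors called to 0 to 2 in classical monocytes and 2 to 3 in mature DC. The lone pool left in an age was assumed to vary like the others.

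Unthinned shares, as adult minus neonatal percentage points, reversed for Cd36 (-0.318, thinned 0.188) and Timd4 (0.145, thinned 0) in classical monocytes, Clec9a in cDC2 (0.450, thinned -0.697) and nonclassical monocytes (0.0113, thinned -0.442), and Havcr2 (3.43, thinned -0.214) and Mertk (-0.179, thinned 0.103) in mature DC. No value could be had for Havcr2 in mature DC with the 10-count filter or without a neonatal pool, for Timd4 and Clec9a in cDC2 and Havcr2 in C1q macrophages at resolution 2, where too few counts were left, or for C1q macrophages with stricter cells, where adult pool 1 kept 17 of them. At resolution 0.5 and with the receptors among the variable genes no C1q macrophage class was drawn, and C1qa and C1qb were among the leading genes of the cluster named cDC2. Keeping doublets or joining proliferating cells left the C1q macrophages as they were. Depth limits Mertk outside macrophages and every receptor in C1q macrophages, where 24 to 54 cells per pool were sampled.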
